A study of Mus musculus with 18 samples.

Results

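The genes described are the 9 that encode the Slit ligands (Slit1, Slit2, Slit3), the Robo receptors Robo1, Robo2 and Robo3, and the Slit-Robo GTPase-activating proteins, or srGAPs (Srgap1, Srgap2, Srgap3). They were taken by symbol from the 24015 genes of the count table, and all 9 were found and had enough counts to be tested in every comparison. RNA was sequenced from tdTomato-positive neurons sorted from mouse cortex at postnatal day 5, in 12 libraries of 3 groups with 4 libraries each. The groups are layer 6 of wild-type (WT) mice, layer 6 of Tbr1 null mice, and layer 5 of WT mice. All 3 groups share the tdTomato reporter, and the sources used here do not name the driver that switches it on. Tbr1 encodes a T-box transcription factor of layer 6 neurons. The sample labels call the mutant a layer 6 null and the series design a constitutive null, and it is called null here. TBR1 binding regions of the same series were not analysed here.

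Slits are secreted proteins that bind Robo receptors on growing axons and migrating neurons, and most often repel them. On the inside of the cell the receptors recruit srGAPs, which switch off small GTPases and carry membrane-bending F-BAR domains. In the forebrain this pathway is known for keeping corticofugal and thalamocortical axons on course and away from the midline.

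WT layer 6 libraries held 32982957 to 54899002 counts each, the null ones 41091165 to 47540669 and those of layer 5 27465597 to 39703820. Levels below are CPM, a gene's counts scaled to the total of its library. Whether the libraries of a group came from different animals is not stated in the labels, and the p-values then measure no more than the spread between the libraries at hand, which can be technical. Tbr1 stood at 91.6 to 97.7 CPM in the null libraries against 173 to 183 in WT layer 6, with 39.7 to 45.1 in layer 5, and whether counted reads lie in the deleted part is not given. In every group the libraries fell into pairs that resembled each other, as measured by chi-square per degree of freedom between their counts, where sampling noise alone gives about 1. The pairs were 1 with 2 and 3 with 4 in WT layer 6 (3.26 and 5.18 within, 10.9 to 19.9 across) and in the null (9.0 and 10.8 within, 23.1 to 61.8 across). In layer 5 they were 1 with 3 and 2 with 4 (1.40 and 1.33 within, 2.97 to 3.41 across), so that n = 4 there stands for libraries of which some differ little beyond counting noise. Xist, the RNA of the inactive X chromosome, was at 0.455 to 0.469 CPM in WT layer 6 libraries 1 and 2 and at 289 to 291 in libraries 3 and 4. It was at 260.2 to 300.1 CPM in all 4 null libraries and at 39.1 to 40.6 in all 4 of layer 5. The null was therefore compared with a WT group of which 2 libraries had an Xist level like its own and 2 had next to none. Layer 6 libraries are labelled sequencing batch A, layer 5 libraries 1 and 2 batch B and libraries 3 and 4 batch C, so layer and batch cannot be told apart and the layer 5 pairs cross the batches. Astrocyte markers summed to 10188 to 10214 CPM in layer 5, against 1574 to 1789 in WT and 1798 to 1880 in null layer 6. Markers of the oligodendrocyte lineage, microglia and vessels were also higher in the layer 5 libraries, with sums of 1125 to 1133, 435 to 444 and 941 to 968 CPM against 267 to 281, 147 to 155 and 449 to 464 in WT layer 6. The 14 layer 5 projection neuron markers summed to 1237 to 1300 CPM in WT layer 6, 1385 to 1457 in the null and only 594 to 605 in the libraries labelled layer 5. Against WT layer 6, 10 of the 14 were lower and 3 higher in layer 5, while in the null 6 were higher and 2 lower. The 15 layer 6 corticothalamic markers summed to 2062 to 2164 CPM in WT layer 6, with 1725 to 1811 in the null and 918 to 955 in layer 5. Fezf2 and Sox5 are in both the layer 5 and the layer 6 list, so these sums are not separate observations. Upper layer markers were at 2795 to 3097, 2563 to 2769 and 2617 to 2661 CPM and pan-neuronal markers at 7050 to 7300, 6630 to 6855 and 5555 to 5601, in the same order of groups.

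Slit2 and Robo3 were higher in Tbr1 null than in WT layer 6, while the other 7 genes were not called. Slit2 was 1.35-fold and Robo3 2.96-fold higher. Thus 2 of the 9 genes passed the test, both higher, where 14.2% of all genes tested were called, made up of 7.31% higher and 6.86% lower. The median log2 fold change was 0.0084 over the 9 genes and 0.00034 over all genes. Genes were called at a Benjamini-Hochberg adjusted p under 0.05 over all genes tested, by edgeR's quasi-likelihood F-test.

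Slit2, the Slit best known for axon repulsion in the ventral forebrain, was at 38.8, 38.4, 32.3 and 33.0 CPM in the 4 WT layer 6 libraries and at 48.1, 49.1, 44.3 and 47.2 in the 4 null libraries. The groups did not overlap, and WT libraries 1 and 2 were the higher pair of their group. The log2 fold change was 0.43 ± 0.061 (SE, n = 4 and 4, edgeR adjusted p = 0.000325). In bulk RNA, more cells that express a gene and more RNA per cell cannot be told apart, here and in every comparison below.

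Robo3, a receptor of commissural axons that in mammals responds to Nell2 and binds Slits poorly, was close to the limit of detection. WT layer 6 libraries held 0.362, 0.243, 0.440 and 0.291 CPM, from 8 to 20 counts each, and null libraries 1.07, 0.772, 1.27 and 0.844 CPM, from 35 to 52 counts. Every null library lay above every WT library. The log2 fold change was 1.56 ± 0.28 (SE, n = 4 and 4, edgeR adjusted p = 0.00214). With libraries that resemble each other summed, which leaves 2 samples per group, both genes passed narrowly (edgeR adjusted p = 0.0497 for Slit2 and 0.0490 for Robo3).

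Promoters of the 2 called genes are shown because TBR1 is a DNA-binding factor and both genes moved in the same direction. The 250 bases before each RefSeq start (GRCm38.p6) are written 5′ to 3′ on the gene's strand, with AGGTG or its reverse complement CACCT, the core of the T-box site, in capitals. The Slit2 window is chr5:47982905-47983154 on the plus strand and the Robo3 window chr9:37433176-37433425 on the minus strand.
Slit2: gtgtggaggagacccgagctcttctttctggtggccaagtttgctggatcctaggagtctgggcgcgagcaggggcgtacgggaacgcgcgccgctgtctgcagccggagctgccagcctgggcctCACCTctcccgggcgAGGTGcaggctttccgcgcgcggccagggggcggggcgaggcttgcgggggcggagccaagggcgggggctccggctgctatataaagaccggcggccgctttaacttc
Robo3: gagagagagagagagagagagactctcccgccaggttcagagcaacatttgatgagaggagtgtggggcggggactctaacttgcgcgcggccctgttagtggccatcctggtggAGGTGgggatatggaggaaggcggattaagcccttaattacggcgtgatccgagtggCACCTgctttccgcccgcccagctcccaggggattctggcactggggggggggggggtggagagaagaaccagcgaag
The matches begin 124 and 109 bases before the start in Slit2 and 135 and 78 bases before it in Robo3. Slit2 also has TATAAA 28 bases before its start, and the window is 69.6% G or C against 61.2% in Robo3.

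The longer T-box letters AGGTGTGA, searched on both strands, were in 0 of the 10 windows that RefSeq lists for 8 of the 9 genes and in 1.12% of 32851 windows of the same length. GGTGTG, a stretch within those letters, was in 2 of the 10 windows and in 16.3% of all. AGGTG, which overlaps it, was in 6 of the 10 and in 46.0% of all. Those windows were of Robo1, Robo2, Slit3 and Srgap2, not called in the null, as well as of Slit2 and Robo3. The 2 windows with GGTGTG or its reverse complement CACACC, shown in capitals within 30 bases, were one of the 3 listed for Robo2 (chr16:75447414-75447443, minus strand) and that of Srgap2 (chr1:131527479-131527508, minus strand), neither of which was called in the null.
Robo2: ctccaggtagagGGTGTGtagaaagcagat
Srgap2: gctagtgttcgcCACACCtctaagtttcgt
They begin 138 bases before the start in Robo2 and 135 bases before it in Srgap2. These matches are descriptions of letters, and no binding was measured at them here.

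Slit1, the Slit most restricted to the nervous system, did not pass the test between null and WT layer 6. Its level was 64.3 ± 1.67 CPM in WT and 61.1 ± 3.62 in null (SD, n = 4), a log2 difference of -0.05 ± 0.044 (SE, edgeR adjusted p = 0.507). Slit3 was at 16.7, 16.3, 10.4 and 10.8 CPM in WT layer 6 and 14.8, 16.8, 16.9 and 17.8 in null. Its null libraries lay with WT libraries 1 and 2 and above WT libraries 3 and 4. The log2 difference was 0.32 ± 0.14 (SE, edgeR adjusted p = 0.159). It became 0.66 (edgeR adjusted p = 0.000660) when WT libraries 1 and 2 were left out and 0.03 (edgeR adjusted p = 0.842) when libraries 3 and 4 were. The part that the difference between these pairs, which moves with Xist, has in the values was not tested.

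Among the receptors, Robo1 was at 374, 390, 395 and 384 CPM in WT layer 6 and 388, 380, 366 and 357 in null, and the groups overlapped. Robo1 and Robo2 are the main Slit receptors of cortical axons. The log2 difference of Robo1 was -0.03 ± 0.034 (SE, n = 4 and 4, edgeR adjusted p = 0.656). Robo2 was at 300.4, 300.8, 364 and 361 CPM in WT layer 6 and at 349, 345, 327 and 318 in null, so that the null values fell between the WT pairs. Its log2 difference was 0.03 ± 0.066 (SE, edgeR adjusted p = 0.789). It was -0.10 without WT libraries 1 and 2 and 0.19 (edgeR adjusted p = 0.0153) without libraries 3 and 4, so its sign and its call depend on which pair stands for WT.

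None of the 3 srGAP genes was called between null and WT layer 6. Srgap1 was at 60.6 ± 2.81 CPM in WT and 56.2 ± 5.13 in null, and Srgap2, whose protein bends membrane outward into filopodia, at 232 ± 3.0 and 225 ± 8.48 (SD, n = 4). Srgap3, also called WRP for its binding to WAVE1, was at 162 ± 4.76 CPM in WT and 161 ± 5.36 in null. The log2 differences were -0.08 ± 0.058, -0.02 ± 0.031 and 0.01 ± 0.035 (SE), with edgeR adjusted p = 0.392, 0.732 and 0.906. Over the 9 genes, 2 had groups that did not overlap (Slit2 and Robo3), beside 20.1% of all genes tested whose groups did not overlap.

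**Figure D1:**
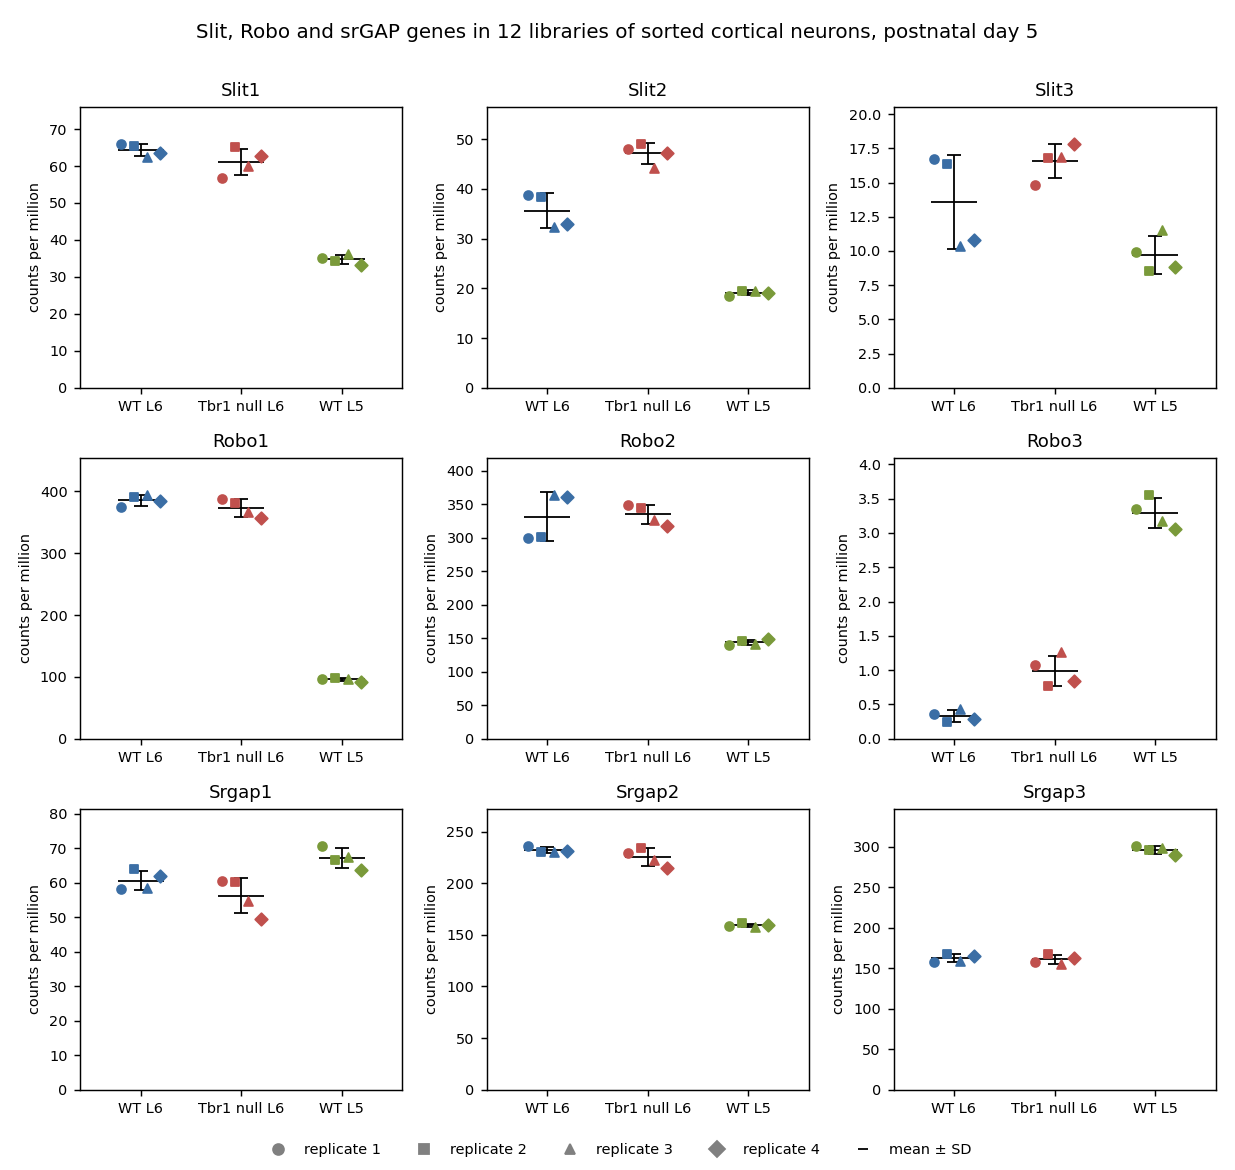
Level of each of the 9 genes in each of the 12 libraries, in CPM by library total, with 1 panel per gene, points for libraries and bars for the group mean and SD (n = 4). Slit2 and Robo3 are higher in every null than in every WT layer 6 library, Robo1 falls from 386 to 96.1 CPM on average between WT layer 6 and layer 5, and the WT layer 6 points of Slit3 and Robo2 form separate pairs.

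All 9 genes differed between WT layer 5 and WT layer 6, where 85.5% of all genes tested were called. The ligands Slit1, Slit2 and Slit3, the receptors Robo1 and Robo2, and Srgap2 were lower in layer 5, whereas Robo3, Srgap1 and Srgap3 were higher. Of all genes tested, 42.2% were called higher and 43.4% lower, so 3 higher and 6 lower calls are read against a near-even split. The median log2 fold change was -0.51 over the 9 genes and -0.01 over all genes. The WT layer 6 libraries are the same ones used against the null, so both comparisons share them. With resembling libraries summed to 2 samples per group, all 9 were called, beside 12272 of 15633 genes tested. Glial and vascular marker sums and the sequencing batch move with these values. Xist differs as well, with its layer 5 level between those of the WT layer 6 pairs. The part of each was not tested.

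Robo1 had the most reduced level of the 9 in layer 5. Its 4 layer 5 libraries were at 96.9, 98.3, 96.9 and 92.4 CPM, all below the lowest WT layer 6 library at 374. The fold was 3.92 and the log2 change -1.97 ± 0.029 (SE, n = 4 and 4, edgeR adjusted p = 1.34e-16). Cdh2, which encodes N-cadherin, the adhesion protein that Robo signalling is known to act on, had one of the patterns most like it over the 12 libraries (Pearson r = 0.999 of log2(CPM + 1), among 11144 genes). Tmem74 and Slc38a1 also had r = 0.999. These correlations are across 12 libraries that fall into a layer 5 and a layer 6 cluster, and within the 8 layer 6 libraries they were 0.890, 0.653 and 0.802.

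Robo2 counts were also lower in layer 5, at 140.3, 146, 141 and 149 CPM against 300.4 to 364 in WT layer 6. The groups were separate, with a 2.26-fold lower level and a log2 change of -1.17 ± 0.062 (SE, n = 4 and 4, edgeR adjusted p = 1.65e-10). The authors' second table, of normalized scores, gives the opposite direction. Its Robo2 scores were 168, 169, 244 and 191 in WT layer 6, 205, 170, 140 and 140 in null layer 6 and 291, 228, 264 and 230 in layer 5. On log2(score + 1), layer 5 was higher by 0.40 (limma adjusted p = 0.0325) and null layer 6 was lower than layer 5 with a log2 difference of -0.64 (limma adjusted p = 0.00473).

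Such a reversal was seldom seen between the tables. Of 12471 genes called between layers in the counts and listed in both tables, 337 (2.70%) had the opposite sign in the scores, and Robo2 was the 1 of the 9 genes among them. Between the tables its layer difference moved by 1.57 on the log2 scale, against a median of 0.0821, which ranked it 4 of 6455 genes with a mean score of at least 30. The sources used here do not describe how the scores were made, and the direction of Robo2 between layers depends on the table used. Robo1, its neighbour on chromosome 16 with 0 protein-coding RefSeq genes between them, was lower in layer 5 in both tables.

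**Figure D2:**
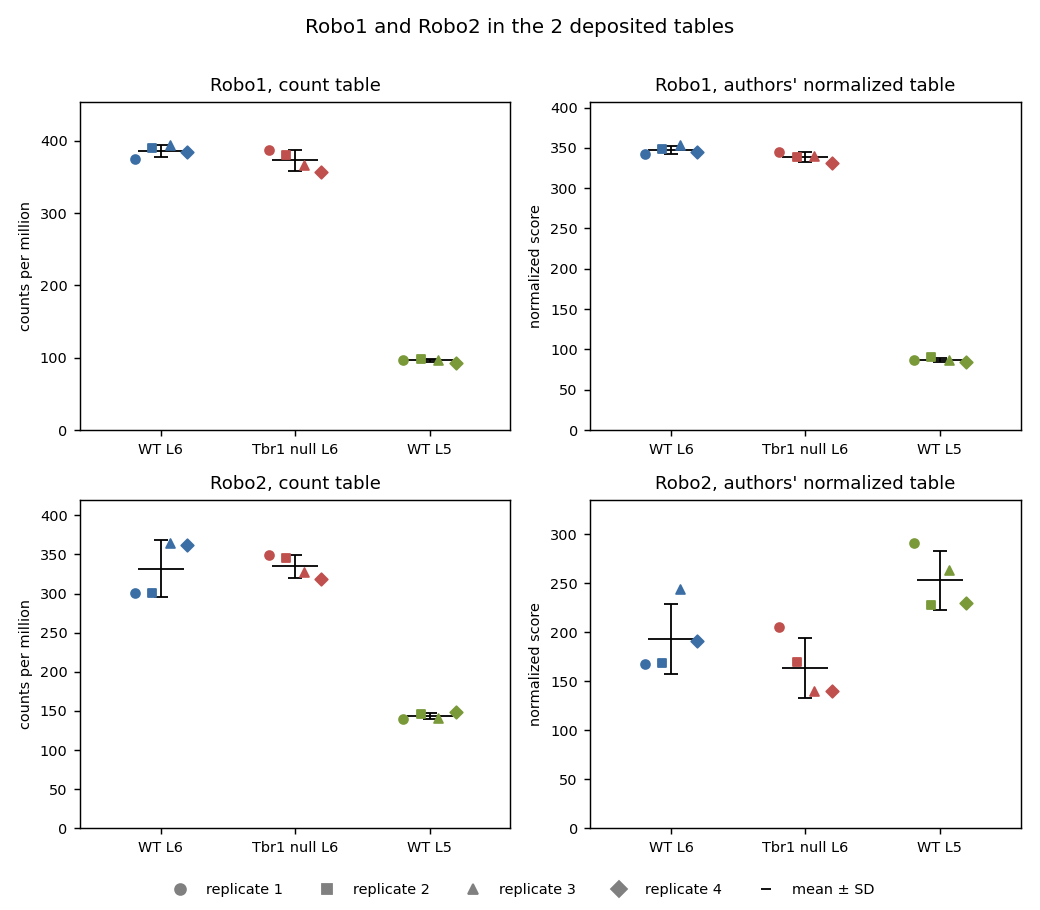
Robo1 and Robo2 in the authors' count table (CPM) and in their normalized table (score) for the 4 libraries of each group, with bars for the mean and SD. Robo1 is lower in layer 5 in both tables, and Robo2 is lower in the counts (144 against 332 CPM) but higher in the scores (253 against 193).

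Robo3 was the receptor that was higher in layer 5. Its libraries held 3.35, 3.56, 3.18 and 3.06 CPM, from 84 to 133 counts, against 0.243 to 0.440 CPM in WT layer 6. No libraries overlapped, and the level was 9.88-fold higher (log2 change 3.30 ± 0.20, SE, n = 4 and 4, edgeR adjusted p = 7.12e-10). Robo4, a vascular relative that lies next to Robo3 on chromosome 9 with 0 RefSeq genes between them, was 3.04-fold higher in layer 5 as well (log2 change 1.60 ± 0.058, SE, edgeR adjusted p = 2.28e-12). Between null and WT layer 6, where Robo3 rose, Robo4 was not called (log2 difference -0.05 ± 0.098, SE, edgeR adjusted p = 0.813). In order of level Robo3 ran from layer 5 through null layer 6 to WT layer 6, and each step passed the test, with null layer 6 lower than layer 5 by a log2 change of -1.75 ± 0.18 (SE, edgeR adjusted p = 2.38e-07).

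Among the ligands, Slit1 was at 35.1, 34.4, 36.1 and 33.4 CPM in layer 5 against 62.4 to 66.1 in WT layer 6. The groups were separate, with a log2 change of -0.86 ± 0.034 (SE, n = 4 and 4, edgeR adjusted p = 5.85e-12). Tubg1, Dcakd and Trim35 had the patterns most like Slit1 (r = 0.997 for each over the 12 libraries, and 0.882, 0.926 and 0.906 within the 8 of layer 6). Slit2 was at 18.4, 19.6, 19.5 and 19.0 CPM in layer 5, below every layer 6 library, with a log2 change of -0.87 ± 0.061 against WT layer 6 (SE, edgeR adjusted p = 4.97e-09). From high to low, Slit2 ran from null layer 6 through WT layer 6 to layer 5, and each step passed the test.

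Slit3, known also from diaphragm and vessel development, was the ligand with the least certain layer difference. Its layer 5 libraries were at 9.95, 8.50, 11.5 and 8.85 CPM and overlapped WT libraries 3 and 4, at 10.4 and 10.8. The log2 change was -0.44 ± 0.15 (SE, n = 4 and 4, edgeR adjusted p = 0.0139). Without WT libraries 1 and 2 it was -0.12 (edgeR adjusted p = 0.245), and with layer 5 batch C alone -0.37 (edgeR adjusted p = 0.115), so the call rests on those libraries.

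The miRNA miR-218-5p is named because its precursors lie inside Slit2 (Mir218-1) and Slit3 (Mir218-2) and it is known to target Robo1. Both precursors give the same mature sequence in RefSeq (GRCm38.p6), printed with its seed, bases 2 to 8, in capitals.
miR-218-5p: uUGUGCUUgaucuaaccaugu
Both precursor rows held 0 counts in all 12 libraries, and in any 1 library a 0 still allows an expected count of up to about 3. Library kits of this kind are not made to keep RNA as short as a mature miRNA, so its level cannot be read from these files.

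The srGAP genes went different ways between the layers. Srgap3 was at 301, 295, 298 and 289.8 CPM in layer 5 against 158 to 168 in WT layer 6. The groups were far apart, with a 1.86-fold higher level (log2 change 0.90 ± 0.027, SE, n = 4 and 4, edgeR adjusted p = 2.41e-13). Ago2, Agap2 and Kmt2d had the patterns most like Srgap3 (r = 0.999, 0.998 and 0.998 over the 12 libraries, and 0.861, 0.649 and 0.567 within the 8 of layer 6). Srgap2 was lower in layer 5, at 158, 162, 158 and 159 CPM against 229.9 to 236 in WT layer 6, with no overlap (log2 change -0.51 ± 0.022, SE, edgeR adjusted p = 1.59e-11). Fam72a, which overlaps Srgap2 in RefSeq, held 544 counts in all over the 12 libraries. Srgap1 was at 70.7, 66.6, 67.4 and 63.7 CPM in layer 5, and its lowest layer 5 library lay below the highest of WT layer 6 at 64.0. Its log2 change was 0.18 ± 0.042 (SE, edgeR adjusted p = 0.000973).

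Over the 9 genes, 7 had groups that did not overlap between the layers, all but Slit3 and Srgap1. Of all genes tested, 81.1% had groups that did not overlap. Between null layer 6 and WT layer 5 all 9 were called and all 9 groups were separate, where 84.3% of genes tested were called and 80.1% were separate. There 6 genes were higher in null layer 6 and 3 lower, where 42.4% and 41.8% of all genes tested were. Robo1 was higher in null layer 6 by a log2 change of 1.94 ± 0.033 (SE, edgeR adjusted p = 2.40e-16), Slit2 by 1.29 ± 0.048 (1.58e-12) and Slit3 by 0.75 ± 0.092 (1.81e-06). Srgap3 was lower there by a log2 change of -0.90 ± 0.031 (SE, edgeR adjusted p = 5.37e-13).

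**Figure D3:**
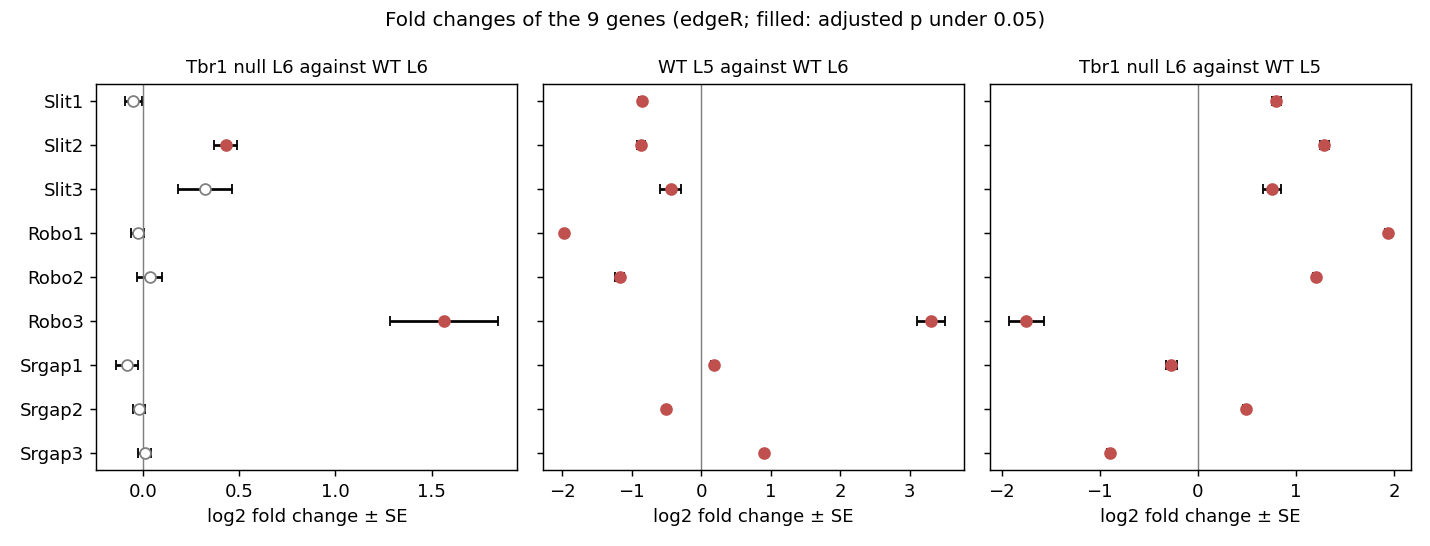
Log2 fold changes of the 9 genes in the 3 comparisons (x axis), with bars of 1 SE and filled points for genes called by edgeR at an adjusted p under 0.05. Only Slit2 (0.43) and Robo3 (1.56) are filled for null against WT layer 6, whereas all 9 are filled in the comparisons with layer 5.

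Since CPM of different genes are not on a scale of length, ratios between family members are given only to compare them across groups. The ratio of Slit1 to Slit2 was 1.81 in WT layer 6 (range 1.70 to 1.93), 1.30 in null (1.18 to 1.35) and 1.82 in layer 5 (1.75 to 1.91). The null ratios lay below all others, while WT layer 6 and layer 5 overlapped. The ratio of Robo1 to Robo2 was 1.17, 1.11 and 0.668 in the same order, and that of Srgap3 to Srgap2 0.700, 0.714 and 1.86. The Robo and srGAP ratios of layer 5 stood apart from both layer 6 groups. In 6 two-sided exact permutation tests against WT layer 6, chosen after the values were seen, the Slit ratio in the null and the Robo and srGAP ratios in layer 5 reached p = 0.0286, the smallest that 4 against 4 libraries allow. Adjusted over the 6 tests these were 0.0571 and did not pass. With p already at its smallest, they could pass only if more of the 6 tests had reached it, so the adjusted values cannot decide. The tests also take the libraries of a group as independent, which the resembling pairs put in doubt. The Robo ratio rests on the count table.

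Other genes of the pathway were read from a list of 42, all of which were tested. Between null and WT layer 6, 8 of the 42 rose and 7 fell, and 27 were not called, against shares over all genes of 7.31% higher and 6.86% lower. With resembling libraries summed, 5 of the 42 were called, 4 higher and 1 lower. Flrt3, a membrane protein that binds Robo1 and modulates its signalling with DCC, had the highest fold change of the list. It was at 80.6, 79.6, 81.9 and 82.9 CPM in the WT layer 6 libraries and at 194, 185, 138 and 136 in the null. All null libraries were above all of WT, and within the null the higher values were those of libraries 1 and 2, which also pair by their counts. The mean was 81.2 CPM in WT and 163 ± 30.5 in null (SD, n = 4), a log2 change of 1.03 ± 0.098 (SE, edgeR adjusted p = 1.19e-05). Dcc, the netrin receptor that Robo proteins can silence, rose by 0.41 ± 0.058 on the log2 scale (edgeR adjusted p = 0.000299). Pak3 and Pak1, kinases downstream of Rac and Cdc42, rose by 0.44 ± 0.043 and 0.30 ± 0.031 (edgeR adjusted p = 1.56e-05 and 2.23e-05).

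Ndnf, a secreted factor of Cajal-Retzius cells and some interneurons, had the lowest fold change of the list. It went from 46.2 to 15.7 CPM on average, a log2 change of -1.53 ± 0.078 (SE, n = 4 and 4, edgeR adjusted p = 4.93e-08). The 8 Cajal-Retzius markers, Ndnf among them, summed to 635 to 735 CPM in WT layer 6, 317 to 342 in null and 475 to 485 in layer 5, and in the null 5 were lower and 1 higher. The 17 interneuron markers summed to 961 to 1062, 659 to 674 and 679 to 693 CPM, and of 16 tested in the null 6 were lower and 1 higher. Reln and Calb2 are in both of these lists, so the falls of the sums are not separate observations. The 14 dividing progenitor markers summed to 1182 to 1195, 1299 to 1313 and 970 to 990 CPM, with 8 higher in the null. The part of these other cells in the null values was not tested. Arhgap39, a GTPase-activating protein that binds Robo (log2 change -0.16 ± 0.034), the heparan sulfate carrier Sdc1 (-0.20 ± 0.045) and Ctnnb1, beta-catenin (-0.12 ± 0.028), also fell (SE, edgeR adjusted p = 0.00500, 0.0108 and 0.0110).

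Between the layers, 11 of the 42 were higher in layer 5, 29 were lower and 2 were not called, against shares over all genes of 42.2% higher and 43.4% lower. In all 40 of the 42 were called, beside 85.5% over all genes. The split depended on scaling: with upper quartile normalization 13 of the 42 were higher and 24 lower, beside 6855 higher and 5788 lower over all genes. Nell2, the secreted ligand of Robo3, was lower in layer 5 with 164 CPM on average against 633 in WT layer 6, a log2 change of -1.91 ± 0.027 (SE, n = 4 and 4, edgeR adjusted p = 1.02e-16). Its receptor Robo3 was higher there, as given above. Cdh2 (-1.74 ± 0.029), Flrt3 (-1.77 ± 0.039) and Flrt2 (-1.11 ± 0.029), a relative of Flrt3, were also lower (SE, edgeR adjusted p = 5.60e-16, 1.00e-14 and 6.72e-14). Higher were Ctnnb1 (0.67 ± 0.023) and the small GTPases Rhoa (0.73 ± 0.026) and Rac1 (0.40 ± 0.019), beside Robo4 (SE, edgeR adjusted p = 1.50e-12, 1.61e-12 and 3.74e-11). Robo4 is itself a gene of vessels, whose 13 markers were all higher in layer 5.

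**Figure D4:**
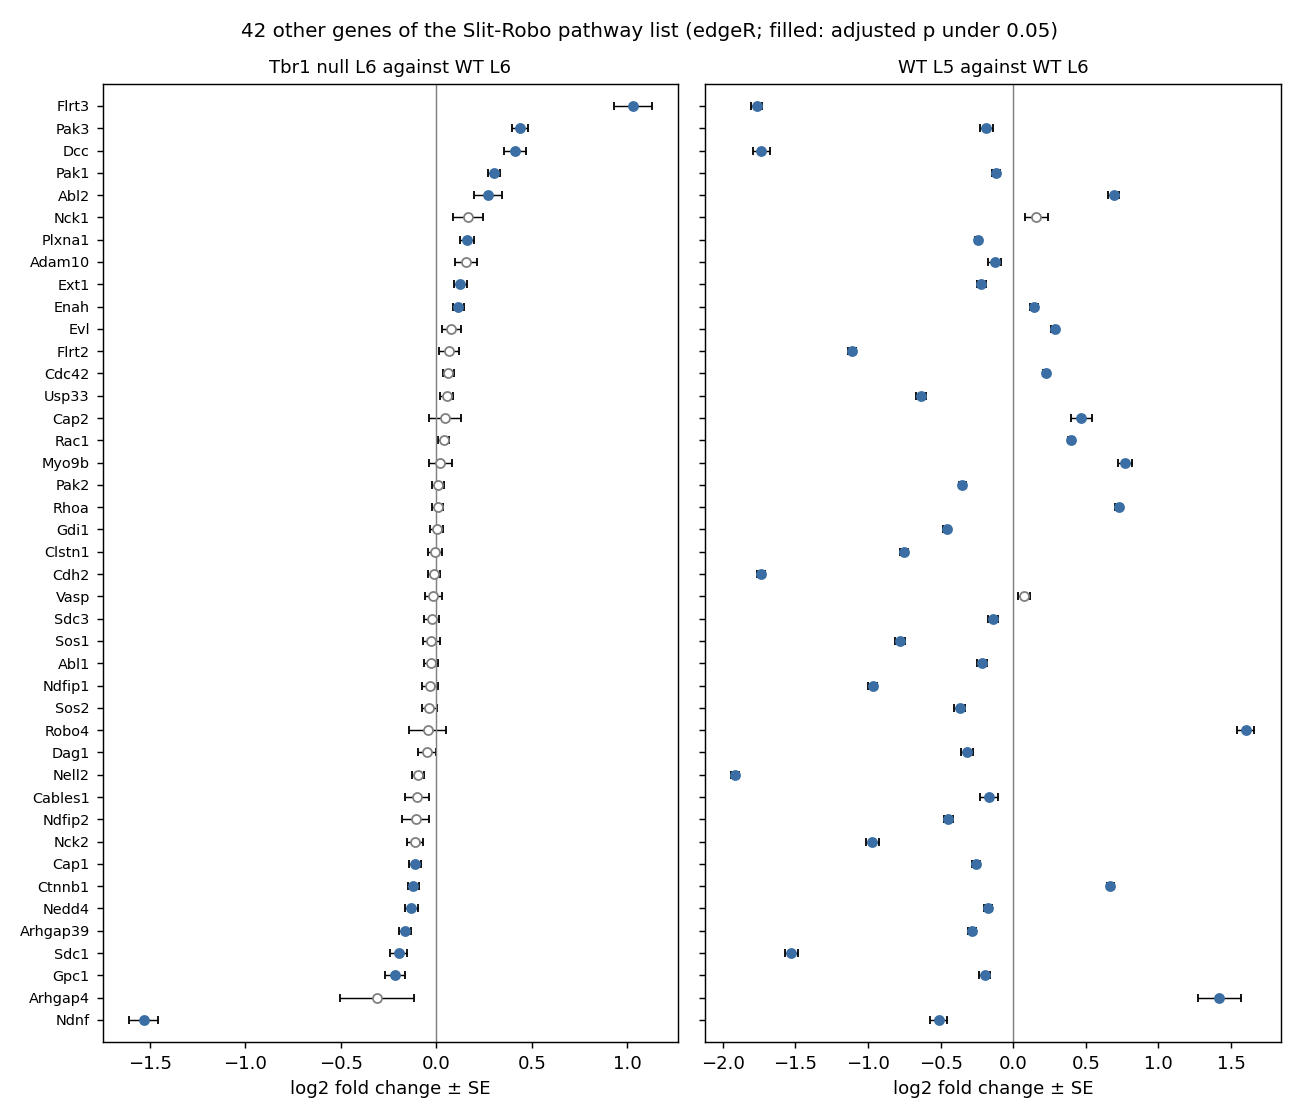
Log2 fold changes of the 42 other pathway genes in null against WT layer 6 and in WT layer 5 against WT layer 6, with called genes filled. Flrt3 (1.03) and Ndnf (-1.53) stand farthest from 0 between null and WT layer 6, and Nell2, Cdh2 and Flrt3 are the lowest in layer 5 against WT layer 6.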

How the data were processed

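The authors deposited raw counts per gene for 12 RNA libraries. The submitters' processing notes name STAR 2.5.2b, HTSeq and the build mm9, while the sources used here give neither the annotation nor the strand setting. About 25000 sorted cells gave each stranded, ribosome-depleted library, per the labels' protocols. The scores deposited by the authors in a second table cover 14567 genes in 12 columns that all have a median of 23. The count test was that of edgeR 4.0.16 under R 4.3.3 (quasi-likelihood F-test fitted to the 2 groups of a comparison, TMM, filterByExpr by group, adjusted p threshold 0.05 over all genes tested), which was tested on simulated data. For null against WT layer 6, that test called 60% of 1.25-fold and 86% of 1.5-fold changes planted in well-counted genes, with 10 false calls. The simulated libraries were drawn independently, without the resembling pairs of the data. A standard error is the log2 fold change divided by the square root of F. Scores were tested with limma 3.58.1 on log2 with a pseudocount of 1. DESeq2 1.42.0 was an alternative.

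Named were all 9 genes, up to 4 called pathway genes per direction and comparison by adjusted p, and for the gene with the highest mean CPM in each of the 3 families the 3 most correlated genes whose mean CPM was 5 or more, predicted genes left out. Robo4 was named in the null comparison and Fam72a, Xist and the miR-218 precursors were named outside this rule. The genes, lists and tests were chosen with earlier results of these data known. TBR1 binding regions are in mm9, and no annotation of that build was used here. RefSeq promoters and miRNAs are from GRCm38.p6.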

Additional observations from a re-analysis of the deposited data

Results flagged for a closer look

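Of 27 groups of 4 libraries (9 genes in 3 groups), 1 held a library far from the rest, and chance alone gives about 1 in 20 groups. It was Srgap2 in WT layer 6, where library 1 was at 236 CPM and the other libraries at 229.9 to 230.7.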

How the results depend on the processing

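In the comparison of null with WT layer 6, 162 of 171 values of the 9 genes under the alternatives kept direction and side of the threshold, as did 186 of 189 between layers and 170 of 171 between null layer 6 and WT layer 5. Robo2 turned in sign against WT layer 6 in the null without WT libraries 1 and 2 (-0.10), in the authors' normalized table (-0.24) and without WT library 1 or 2 alone (-0.015 to 0.085 over the 8 fits that leave out 1 library), and Srgap3 without WT library 1, null library 2 or null library 4 (-0.010 to 0.024 over the 8). In the normalized table Robo2 was 0.40 between layers and -0.64 between null layer 6 and WT layer 5. Between null and WT layer 6, the 15 pathway calls were 9 without WT libraries 1 and 2 and 5 with resembling libraries summed. The 2068 calls over all genes were 1506 and 479 at these 2 settings. With the sums the adjusted p of Slit2 was 0.0497 and of Robo3 0.0490. Leaving out 1 library gave 2 of the 9 genes in every fit of null against WT layer 6, beside 1632 to 1838 of all genes. DESeq2 also gave 2, beside 2422 of all genes. The settings without WT library pairs and the normalized table were added after the data were seen. The cause was not tested. Alternatives on TBR1 regions were not run, since no mm9 annotation was used. Numbers of libraries were not taken as pairs: deviations of same-numbered libraries correlated from -0.120 to 0.006. With the replicate block the calls between null and WT layer 6 were 2 of the 9 genes, 11 of the 42 and 1526 of all. Depth limits Robo3 most, at 8 to 20 counts per WT layer 6 library.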

Other observations

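Between null layer 6 and WT layer 5, 25 of the 42 other pathway genes were higher in null layer 6, 12 were lower and 5 were not called, where 42.4% of all genes tested were called higher, 41.8% lower and 84.3% in either direction. Dcc was higher by a log2 change of 2.14 ± 0.033 and Flrt3 by 2.79 ± 0.11, with Nell2 (1.81 ± 0.029) and Cdh2 (1.72 ± 0.032) also higher (SE, n = 4 and 4, edgeR adjusted p = 9.41e-17, 1.84e-12, 1.22e-16 and 5.75e-16). Lower were Robo4 (-1.65 ± 0.081), Ndnf (-1.03 ± 0.064), Ctnnb1 (-0.79 ± 0.025) and Rhoa (-0.73 ± 0.031), with edgeR adjusted p = 3.94e-11, 6.95e-10, 1.91e-13 and 6.19e-12. The null libraries here are those compared with WT layer 6, and layer and batch cannot be told apart.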
